A study of Mus musculus with 23 samples.

Results

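The genes described here were 9 genes of the metal and oxidative stress response, namely Mt1, Mt2, Slc30a1, Hmox1, Nqo1, Gclc, Gclm, Txnrd1 and Srxn1, which were chosen by name from the 47643 genes of the deposited expression table. All 9 were found, each under 1 identifier, and all 9 passed the filter on low values in each comparison reported. They were followed across 18 RNA sequencing libraries of B16F10, a mouse melanoma line derived from the C57BL/6 strain. The study asked what the loss of the orphan nuclear receptor NR2F6 changes inside melanoma cells, and sequenced the cells both in culture and after growth as tumors in mice.

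The libraries fell into 3 sample types of 6 libraries each, with 2 libraries for each of 3 kinds of cells. Control cells carried no Nr2f6 guide, and sg492 and sg495 cells had received Cas9 protein with 1 of 2 guide RNAs against Nr2f6. Cells that had taken up the labeled guide were sorted after transfection, and the sources used here do not say that an edited line came from a single clone. Bulk tumors were whole tumors from male C57BL/6 mice and held host cells beside the melanoma cells. Sorted tumor cells came from tumors digested with collagenase for 1 h at 30 °C and then depleted of stromal cells on magnetic columns. Cultured cells were grown in dishes and saw neither a host nor the digestion. Nothing in the labels says that the 2 libraries of a group came from separate tumors or cultures, so p-values measure the spread between these libraries, which may be technical. The values are TPM, transcript numbers scaled for transcript length so that each library adds up to the same total (999999 to 1000001), and they keep no record of the reads behind a value. Levels of different genes can be compared on this scale.

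Nr2f6 itself was read out before the guides were compared. In cultured cells it stood at 31.9 and 32.9 TPM in the control libraries, at 26.6 and 31.5 TPM for sg492 and at 18.6 and 22.4 TPM for sg495. In bulk tumors it was at 25.8 and 25.2 TPM in the control, 22.3 and 23.3 TPM for sg492 and 17.2 and 15.8 TPM for sg495. In the sorted tumor cells, called sorted cells in what follows, they were 20.3 and 17.7 TPM, 19.8 and 25.7 TPM, and 10.6 and 12.2 TPM in the same order. The sg495 libraries were below the controls in all 3 sample types, but limma called the difference in cultured cells only (-0.64 on the log2 scale, adjusted p = 0.021, against 0.087 in bulk tumors and 0.13 in sorted cells). The sorted libraries labeled sg492 were not below their controls, so no direction drawn from sg492 in sorted cells rests on a lower Nr2f6 level. An mRNA level does not show whether a guide has removed the protein.

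Metallothioneins are small cysteine-rich proteins that bind zinc, copper and cadmium, and their genes are switched on when the zinc-sensing factor MTF1 binds metal response elements in their promoters. Slc30a1 encodes ZnT1, the zinc exporter of the plasma membrane and another MTF1 target. The remaining 6 genes belong to the program of NRF2, a transcription factor that KEAP1 holds at a low level until oxidants or electrophiles modify KEAP1. They encode heme oxygenase 1 (Hmox1), which breaks down heme and is also held down by the repressor BACH1, the quinone reductase Nqo1, the catalytic and modifier subunits of glutamate-cysteine ligase (Gclc and Gclm), which make the precursor of glutathione, thioredoxin reductase 1 (Txnrd1) and sulfiredoxin (Srxn1), which repairs overoxidized peroxiredoxins.

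Promoter windows of the reference (RefSeq, build GRCm38.p6, 250 bases before to 50 bases after each annotated start) were found for 7 of the 9 genes, in 9 windows. The 250 bases before the start are shown for the 3 metal genes, because they share a regulator and include both the widest difference of the 9 genes between sorted cells and cultured cells (Slc30a1) and a gene with no call there (Mt1). Capitals mark the letters of a metal response element core, searched as TGCACNC or TGCGCNC, or of an antioxidant response element core, searched as TGACNNNGC, on either strand.
Mt1, chr8:94178839-94179088, plus strand: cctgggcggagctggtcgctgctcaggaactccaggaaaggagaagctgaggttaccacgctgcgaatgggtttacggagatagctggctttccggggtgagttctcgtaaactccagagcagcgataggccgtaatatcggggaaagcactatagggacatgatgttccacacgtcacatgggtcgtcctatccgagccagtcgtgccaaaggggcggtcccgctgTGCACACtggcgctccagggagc
Mt2, chr8:94172368-94172617, plus strand: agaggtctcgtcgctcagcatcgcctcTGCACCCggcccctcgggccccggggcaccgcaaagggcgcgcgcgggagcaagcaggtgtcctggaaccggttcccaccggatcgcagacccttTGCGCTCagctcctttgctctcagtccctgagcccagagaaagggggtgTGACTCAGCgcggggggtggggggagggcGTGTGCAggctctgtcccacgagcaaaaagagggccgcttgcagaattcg
Slc30a1, chr1:191906531-191906780, plus strand: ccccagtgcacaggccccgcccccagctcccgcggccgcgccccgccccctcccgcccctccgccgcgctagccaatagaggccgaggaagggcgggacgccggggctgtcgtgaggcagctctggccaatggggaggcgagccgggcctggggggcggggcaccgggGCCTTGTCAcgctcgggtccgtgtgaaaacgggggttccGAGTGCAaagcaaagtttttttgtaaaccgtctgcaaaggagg
In the whole 300-base windows the metal core occurred at 3 places in Mt1, at 4 in Mt2 and at 2 in Slc30a1. Counts of either core depend on where the annotated start lies, and bases more than 50 after it were not searched. A site of 30 bases, from the base before the annotated Mt1 start onward, carries both spellings of the core. Both lie in the Mt1 window and are among its 3 places.
Mt1 site, chr8:94179088-94179117, plus strand: ctcTGCACTCcgcccgaaaagTGCGCTCgg
Of all 32851 windows of this length, 25.7% held the metal core at least at 1 place, 7.11% at 2 or more, 1.97% at 3 or more and 0.518% at 4 or more. The metal core was also found at 3 places in the Gclm window and at 1 place in that of Srxn1. The antioxidant core stood in 1 place in the windows of Mt2, Slc30a1, Gclm and Srxn1 and in 1 of the 3 windows of Txnrd1, against 12.4% of all windows. In Mt2 it overlapped the AP-1 core TGAGTCA, and the Srxn1 window held that AP-1 core at 2 places. That core was found at 1 place or more in 5.20% of all windows. None of these letters stood in the Nqo1 window. A match of letters is a description of the sequence and does not show a bound factor.

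Levels of the 9 genes ran from 3.02 TPM for Slc30a1 to 1270 TPM for Mt1. Mt1 and Mt2 were the most abundant in every sample type, with medians over 6 libraries of 773 and 591 TPM in the bulk tumors, 954.5 and 740.3 TPM after sorting and 1159 and 399 TPM in culture. Txnrd1 came next in all 3 sample types at medians of 168.5, 167 and 245 TPM in the same order. Hmox1 had medians of 136, 151 and 81.1 TPM in bulk tumors, sorted cells and cultured cells. Gclm, Srxn1 and Gclc lay between 22.1 and 112 TPM in all libraries. The scarcest were Nqo1, between 4.21 and 15.0 TPM, and Slc30a1, between 3.02 and 26.3 TPM.

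**Figure D1:**
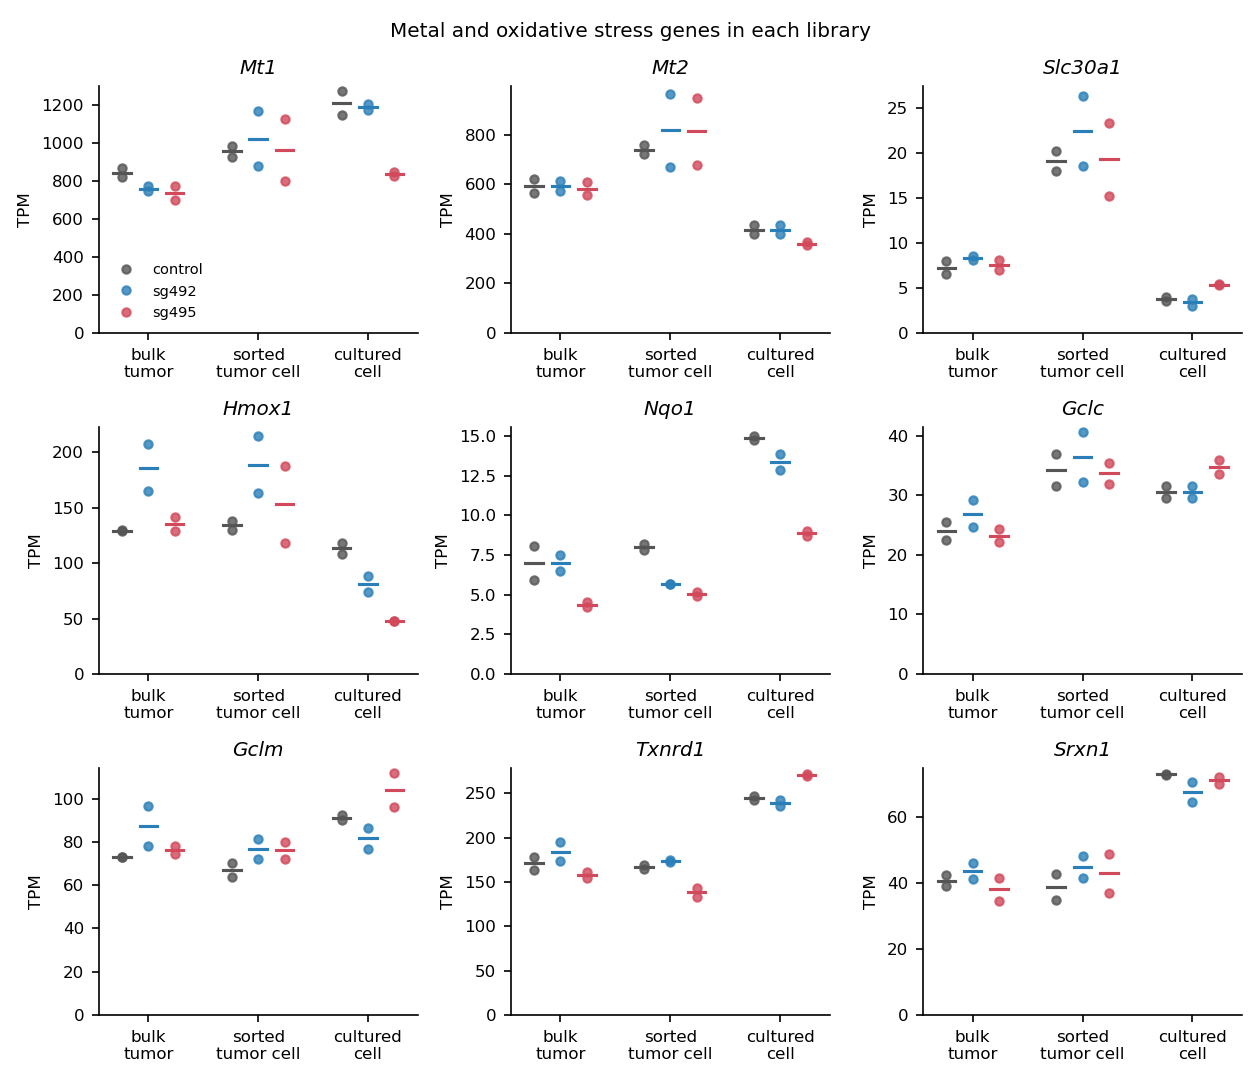
Level of each gene in TPM (vertical axis, from 0) in the 18 libraries, grouped by sample type (horizontal axis) and colored by guide. Points are libraries and short lines are the means of 2 libraries. The Slc30a1 level of the 6 sorted cell libraries lies above that of all 12 others, and the Hmox1 and Nqo1 levels of cultured cells are lowest in the 2 sg495 libraries.

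Sorted tumor cells were compared with cultured cells to see how the cells differ after growth in a mouse and isolation from a tumor. A gene was called changed at a Benjamini-Hochberg adjusted p below 0.05 in limma and a fold of at least 1.5 on the log2(TPM + 1) scale, and each sample type was taken as the mean of its control, sg492 and sg495 groups. Of the 9 genes, 3 were called higher (Slc30a1, Hmox1 and Mt2) and 3 lower (Nqo1, Srxn1 and Txnrd1) in sorted cells. Over all 13152 genes tested, 14.6% were called higher and 8.99% lower. The median log2 difference of the 9 genes was -0.13, against 0.00 over all genes tested. All 6 sorted libraries were above all 6 cultured libraries for Mt2 and Slc30a1, as for 18.6% of all genes, and below them for Nqo1, Txnrd1 and Srxn1, as for 21.3%.

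Bulk tumors against sorted cells gave 1 call, a lower Slc30a1 level in bulk tumors, where 9.26% of all genes were called higher and 4.31% lower. Mt2, Slc30a1 and Gclc were lower in all 6 bulk tumors than in all 6 sorted libraries, as were 7.09% of genes. Bulk tumors against cultured cells gave 2 calls higher (Hmox1 and Slc30a1) and 2 lower (Nqo1 and Srxn1), where 15.8% and 3.95% of all genes were called. After quantile normalization the whole-table calls of these comparisons changed to 946 higher and 1384 lower and to 1314 higher and 1711 lower. All 6 bulk tumors were above all 6 cultured libraries for Mt2, Slc30a1 and Hmox1 (20.9% of genes) and below them for Nqo1, Gclc, Txnrd1 and Srxn1 (15.8%). In bulk tumors against cultured cells all 9 genes had an adjusted p below 0.05 in limma, and the other 5 missed the 1.5-fold limit. The share of all genes with such an adjusted p is not given here, so this count does not set the 9 genes apart. Bulk tumors also differed from both other sample types in their cells, and in such samples a smaller share of cells of a type and less RNA per cell cannot be told apart.

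**Figure D2:**
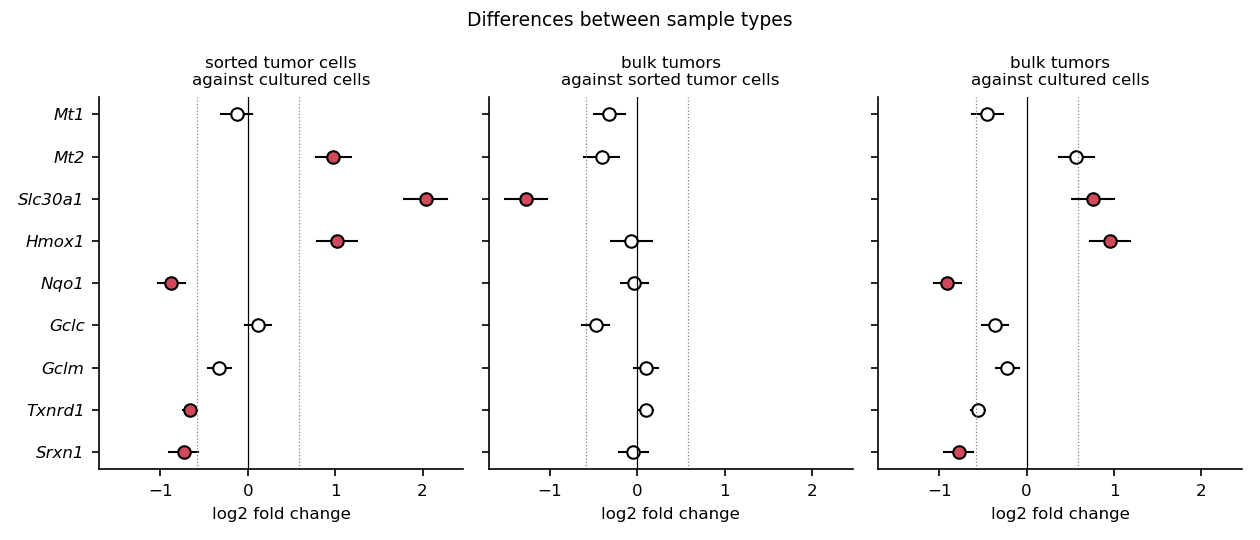
Log2 fold change (horizontal axis) of each gene between sample types, 6 libraries each, with 95% confidence intervals from limma. Filled points were called, dotted lines mark a fold of 1.5, and the widest difference is that of Slc30a1 between sorted cells and cultured cells, at 2.03.

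Slc30a1, the zinc exporter gene, showed the widest difference of the 9 genes. Its lowest, median and highest levels over 6 libraries were 15.2, 19.4 and 26.3 TPM in sorted cells, 6.59, 8.01 and 8.50 TPM in bulk tumors and 3.02, 3.91 and 5.47 TPM in cultured cells. The 3 ranges did not overlap, with sorted cells highest and cultured cells lowest. The log2 difference between sorted cells and cultured cells was 2.03 ± 0.11 (SE; adjusted p = 9.1e-09), that between bulk tumors and sorted cells was -1.27 ± 0.11 (adjusted p = 1.0e-06), and that between bulk tumors and cultured cells was 0.76 ± 0.11 (adjusted p = 6.8e-05), all by limma. After quantile normalization the last of these was 0.33 and was not called.

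Mt1 and Mt2 differed in their pattern. Mt2 had lowest, median and highest levels of 672, 740.3 and 966 TPM in sorted cells, 556, 591 and 622 TPM in bulk tumors and 357, 399 and 434 TPM in cultured cells. These ranges did not overlap, and the log2 difference between sorted cells and cultured cells was 0.98 ± 0.09 (SE; limma adjusted p = 1.1e-06). Mt1, which lies 5513 bases beyond the end of Mt2, had 799.5, 954.5 and 1165 TPM in sorted cells and 825, 1159 and 1270 TPM in cultured cells. Those ranges overlapped, with a log2 difference of -0.13 and a 95% interval from -0.31 to 0.05 (adjusted p = 0.19). Mt1 in bulk tumors ran from 699 to 869 TPM, and its log2 difference from cultured cells was -0.45 ± 0.08 (adjusted p = 0.00046), below the fold limit, where that of Mt2 was 0.57 ± 0.09.

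The ratio of Mt2 to Mt1 within each library, a measure chosen after the values were seen, does not depend on the scaling of the library. It was 0.376 ± 0.0452 in cultured cells, 0.758 ± 0.0451 in bulk tumors and 0.806 ± 0.0387 in sorted cells (mean ± SD, n = 6 each). The highest ratio in cultured cells was 0.432 and the lowest outside culture was 0.689. The ratio was 2.15-fold higher in sorted cells and 2.03-fold higher in bulk tumors than in cultured cells, each with p = 0.00217 in a 2-sided exact permutation test of the log2 ratios, the smallest p that 6 against 6 libraries allow (Benjamini-Hochberg adjusted over 3 comparisons, 0.00325). The ratio in bulk tumors was 0.940-fold that of sorted cells (exact permutation p = 0.0801, adjusted 0.0801). These p-values were computed for a pattern already seen. They also treat the 6 libraries of a sample type as interchangeable, although these share their guides in pairs. Within cultured cells the ratio was 0.348 and 0.342 in the control, 0.332 and 0.371 with sg492, and 0.432 and 0.432 with sg495. Mt1 and Mt2 have similar sequences, and the estimate that divides reads fitting both genes could affect this ratio.

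**Figure D3:**
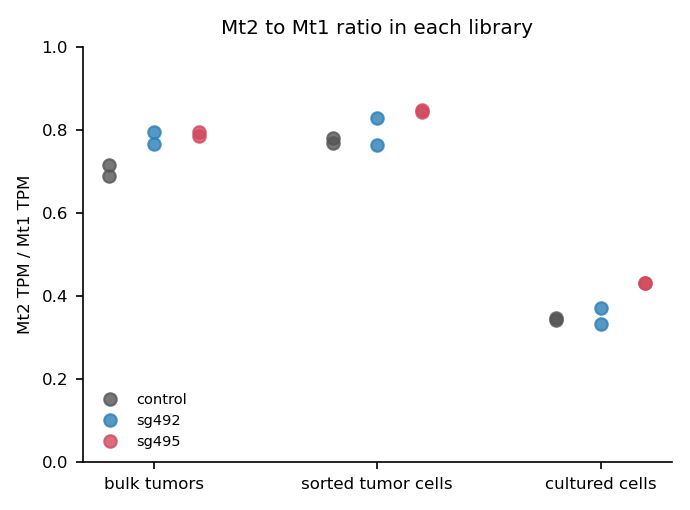
Ratio of Mt2 TPM to Mt1 TPM (vertical axis, from 0) in each library, by sample type and colored by guide. The 6 cultured cell libraries lie between 0.332 and 0.432 and the 12 others between 0.689 and 0.849.

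Hmox1 had lowest, median and highest levels of 118, 151 and 215 TPM in sorted cells, 129, 136 and 208 TPM in bulk tumors and 47.7, 81.1 and 118.5 TPM in cultured cells. The bulk tumor libraries were all above the cultured cell libraries, while the lowest sorted library fell just under the highest cultured library. The log2 differences were 1.02 ± 0.11 (SE; limma adjusted p = 2.8e-06) for sorted cells and 0.95 ± 0.11 (adjusted p = 6.5e-06) for bulk tumors, both against cultured cells. In the control libraries alone the log2 differences were 0.24 (adjusted p = 0.027) and 0.19 (adjusted p = 0.062), and neither was called.

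Nqo1, Srxn1 and Txnrd1 were lower outside culture. Nqo1 ran from 4.92 to 8.17 TPM in sorted cells, from 4.21 to 8.08 TPM in bulk tumors and from 8.72 to 15.0 TPM in cultured cells. All libraries from mice were below all cultured libraries, with log2 differences of -0.88 ± 0.07 (SE; limma adjusted p = 2.6e-07) for sorted cells and -0.91 ± 0.07 (adjusted p = 2.0e-07) for bulk tumors. Srxn1 ran from 35.0 to 48.8 TPM and from 34.7 to 46.0 TPM in these 2 sample types against 64.7 to 73.0 TPM in culture, again without overlap. Its log2 differences from cultured cells were -0.74 and -0.78, each ± 0.08 (SE), with limma adjusted p of 2.7e-06 and 1.9e-06.

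Txnrd1 ran from 133 to 175 TPM in sorted cells, from 155 to 196 TPM in bulk tumors and from 236 to 272 TPM in cultured cells, which again did not overlap the others. Its log2 differences from cultured cells were -0.66 ± 0.04 (SE) for sorted cells, which was called, and -0.56 ± 0.04 for bulk tumors, which fell short of the fold limit. With quantile normalization the former was -0.57 and with control libraries alone it was -0.55, and neither passed the fold limit. The 2 subunits of glutamate-cysteine ligase stayed within the fold limit in all 3 comparisons, as did Mt1. Gclm ran from 63.8 to 81.1 TPM in sorted cells and from 76.8 to 112 TPM in cultured cells (log2 difference -0.32, 95% interval -0.46 to -0.19). Gclc ran from 31.5 to 40.5 TPM in sorted cells and from 29.5 to 35.9 TPM in cultured cells (0.12, 95% interval -0.04 to 0.27), and was 0.48 lower on the log2 scale in bulk tumors than in sorted cells, a fold of 0.719.

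The regulators of these genes were measured in the same libraries. Nfe2l2, which encodes NRF2, ran from 60.9 to 76.2 TPM in sorted cells, from 79.3 to 90.6 TPM in bulk tumors and from 121 to 128 TPM in cultured cells. It was called lower in sorted cells than in cultured cells (log2 difference -0.78, limma adjusted p = 7.0e-09), and so was Keap1 (-0.79, adjusted p = 3.2e-07), whose product holds NRF2 down. Mtf1 ran from 7.74 to 15.5 TPM over all 18 libraries and was not called between sample types. Against cultured cells its log2 differences were 0.34 in sorted cells and 0.26 in bulk tumors (limma adjusted p = 0.0036 and 0.019), under the fold limit. Bach1 and the NRF2-related Nfe2l1 were not called either. Under the fold limit, Nfe2l1 differed from cultured cells by 0.25 in sorted cells and 0.26 in bulk tumors (limma adjusted p = 0.00075 and 0.00080). Bach1 differed by -0.27 in sorted cells (limma adjusted p = 0.019). Keap1 was 0.65 higher on the log2 scale in bulk tumors than in sorted cells, which was called. Among the 11 NRF2 regulators tested of 12, the genes of the small MAF proteins, the DNA-binding partners of NRF2 and BACH1, were called higher in sorted cells than in cultured cells (Maff 2.62, Mafk 2.21 and Mafg 1.09 on the log2 scale), and 3 regulators were called lower.

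Other genes of the same pathways did not follow 1 direction. Of 31 other metal genes, 21 were tested, and 3 were called higher and 1 lower in sorted than in cultured cells, at a median log2 difference of -0.07. The zinc importers Slc39a2 and Slc39a14 were higher by 1.32 and 1.29 on the log2 scale, the copper exporter Atp7a was higher by 0.69, and the copper chaperone Atox1 fell by 0.79. Of 36 other genes listed as NRF2 targets, 31 were tested, and 6 were called higher and 7 lower (median -0.31). The largest differences were Trib3 (2.90), the cystine transporter gene Slc7a11 (2.11) and the glutathione transferase genes Gsta4 (2.04) and Mgst2 (1.88). Whether NRF2 drove the differences of the listed genes was not tested. Of 25 genes of heme and iron handling tested of 26, 1 was called higher and 6 lower (median -0.28), among them Blvrb (-1.20), Hmox2 (-0.84) and the ferritin light chain gene Ftl1 (-0.74). Of 26 other antioxidant enzymes tested of 27, 2 were called higher and 3 lower (median -0.17). Gpx1, a glutathione peroxidase gene, was higher by 1.75 and Glrx fell by 0.94.

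Genes of acute stress and dissociation stood far higher in sorted cells, and these cells had been through the digestion. Of 20 such genes tested of 23, 18 were called higher and 1 lower than in cultured cells (median log2 difference 3.34), and 18 of the 20 were called lower in bulk tumors than in sorted cells (median -1.97). Their summed level was 1942 to 3196 TPM in the 6 sorted libraries, 484 to 596 TPM in bulk tumors and 364 to 582 TPM in cultured cells. Fos, an immediate early gene, ran from 221 to 468 TPM, from 13.5 to 27.4 TPM and from 0.78 to 1.54 TPM in the same order. Slc30a1, Gclc, Mt2 and Mt1 were also lower in bulk tumors than in sorted cells at a limma adjusted p below 0.05, by log2 differences of -1.27, -0.48, -0.41 and -0.32, with only that of Slc30a1 past the fold limit. Txnrd1 was higher in bulk tumors by 0.10 (adjusted p = 0.033), and the other 4 genes had an adjusted p above 0.05. The share of all genes with an adjusted p below 0.05 is not given here, so these values do not set the members apart. Hmox1 did not differ detectably between these sample types (-0.07, 95% interval -0.30 to 0.16). The part of the digestion in the differences of the 9 genes was not tested, and digestion, sorting and growth in a mouse cannot be told apart for sorted cells against cultured cells.

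Glucocorticoids are known inducers of metallothionein genes, and glucocorticoid response genes were called higher in 6 of 10 tested of 12 in sorted cells than in cultured cells (median 1.58), with Dusp1 at 3.48 and Sgk1 at 2.68. Hypoxia response genes were called higher in 8 and lower in 1 of 15 (median 0.62), with Car9 at 5.25 and Vegfa at 1.92. In bulk tumors against sorted cells, 6 of 10 glucocorticoid response genes were called lower and none higher, and 8 of 15 hypoxia response genes lower and 2 higher. Both lists were chosen with earlier results of these data known, and their part in the differences of the 9 genes was not tested.

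The cell content of the samples was checked with marker lists. Macrophage markers, 12 genes, summed to 484 to 1029 TPM in bulk tumors with a median of 810.4 TPM, to 4.40 to 13.5 TPM in sorted cells and to 2.26 to 6.17 TPM in cultured cells, with Lyz2 the most abundant in all 6 bulk tumors. Leukocyte markers, 12 genes, summed to 132 to 351, to 6.17 to 10.3 and to 2.95 to 3.79 TPM in the same order, and Ptprc, the gene of CD45, was at most 0.15 TPM in sorted cells and at 0 in all cultured libraries. Red cell markers, 7 genes, summed to 299.8 to 1769, to 4.90 to 33.5 and to 0 to 0.2 TPM. Fibroblast markers, 10 genes, summed to 395 to 1091, to 4.45 to 7.0 and to 10.3 to 15.5 TPM. Endothelial markers, 10 genes, summed to 257 to 284, to 144 to 162 and to 132 to 164 TPM, of which most was Eng, while Pecam1 was between 16.0 and 20.5 TPM in bulk tumors and at most 0.85 TPM elsewhere.

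Melanocyte markers, 12 genes with none at 0, summed to 16190 to 17300, to 15900 to 18670 and to 18060 to 18440 TPM, so the labeled cell type was borne out by its markers in all 18 libraries. In sorted cells the macrophage and leukocyte lists were near 0, with 4 to 9 of 12 and 5 to 7 of 12 genes at 0, while the red cell and leukocyte lists were above their levels in cultured cells in all 6 libraries. The part of host cells in the levels of the 9 genes in sorted cells and bulk tumors was not tested.

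The guides were compared with the control within each sample type. In cultured cells with sg495, 2 of the 9 genes were called lower, Hmox1 and Nqo1, and none higher, where 2.03% of the 12007 genes tested were called lower and 0.733% higher. Between sg495 and sg492 in cultured cells 1 of the 9 was called lower, Hmox1, against 2.03% of genes lower and 0.575% higher.

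No member was called by limma with sg492 in any sample type or with sg495 in bulk tumors or sorted cells. Over all genes 0.022% were called higher and 0.00733% lower with sg495 in bulk tumors, 0.605% and 0.295% with sg495 in sorted cells, 0.031% and 0.00775% with sg492 in sorted cells, 0.025% and 0.025% with sg492 in cultured cells and 0.0% with sg492 in bulk tumors. These shares depended on the fit, since with all 18 libraries in 1 fit limma called 361 genes higher and 34 lower with sg495 in bulk tumors, against 3 and 1, and 250 and 149 with sg495 in sorted cells, against 78 and 38, still with no member among them. They also fell, since without a filter on TPM limma called 2 higher and 1 lower with sg495 in sorted cells. At an unadjusted p below 0.05 there were 2 members with sg495 in bulk tumors (Mt1 and Nqo1, against 15.7% of genes) and 2 with sg495 in sorted cells (Nqo1 and Txnrd1, against 15.6%). With sg492 there was 1 in each sample type, Hmox1 in bulk tumors (8.3% of genes) and in cultured cells (10.5%) and Nqo1 in sorted cells (7.13%). Between sg495 and sg492, limma called no member in bulk tumors (0.0% of all genes in either direction) or in sorted cells (0.395% higher and 0.194% lower). There the members with an unadjusted p below 0.05 were Hmox1, Nqo1 and Txnrd1 in bulk tumors, against 10.1% of genes, and Txnrd1 in sorted cells, against 14.7%.

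Position on the chromosome bears on the guide comparisons, because 4 of the 9 genes lie on chromosome 8 (GRCm38), as Nr2f6 does at 71374123 to 71381960. Hmox1 (75093621 to 75100589) starts 3.72 Mb beyond the Nr2f6 start, Mt2 (94172664 to 94173568) and Mt1 (94179082 to 94180327) 22.8 Mb beyond it, and Nqo1 (107388225 to 107403206) 36 Mb beyond it. The other 5 lie elsewhere: Slc30a1 on chromosome 1, Srxn1 on 2, Gclm on 3, Gclc on 9 and Txnrd1 on 10. With sg495, the genes of chromosome 8 were lower as a whole. In cultured cells the median log2 fold change of 645 chromosome 8 genes was -0.33 and 90.7% were below 0, while the medians of the other autosomes lay between -0.01 and 0.03. The medians of chromosome 8 were -0.25 in bulk tumors and -0.34 in sorted cells with sg495, and 0.03, 0.02 and 0.03 in bulk tumors, sorted cells and cultured cells with sg492. Genes before and after Nr2f6 on the chromosome were alike, with medians of -0.34 and -0.32 in cultured cells. Of the chromosome 8 genes 8.68% were called lower in cultured cells with sg495 against control and 10.2% with sg495 against sg492, which is the background for Hmox1 and Nqo1 on their own chromosome. Nr2f6 itself lay 0.31 below the chromosome 8 median in cultured cells, where 46 of the 645 genes fell further, and 0.35 below it in both bulk tumors and sorted cells. For these 4 genes and Nr2f6 the guide and the chromosome-wide shift cannot be told apart except by their distance from the median of the chromosome.

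**Figure D4:**
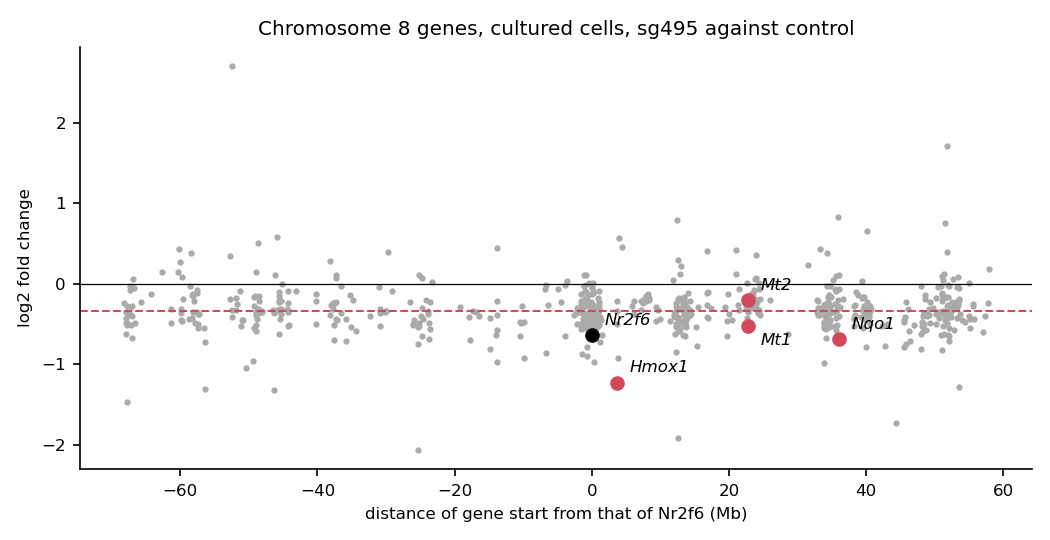
Log2 fold change (vertical axis) with sg495 against control in cultured cells for 645 genes of chromosome 8, by the distance of each gene start from that of Nr2f6 in Mb (horizontal axis). The dashed line is their median, -0.33, and Hmox1 lies farthest below it of the 4 labeled members (red).

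Hmox1 stood at 118.5 and 108.6 TPM in control cultured cells, at 88.1 and 74.0 TPM for sg492 and at 47.7 and 47.9 TPM for sg495. Both guides gave lower values than the control without overlap, as they did for 28.9% of all genes and 80.0% of chromosome 8 genes with sg495 and for 14.3% of all genes with sg492, and sg495 gave the lowest. The log2 fold change was -1.23 ± 0.09 (SE; limma adjusted p = 0.0019) with sg495 and -0.48 ± 0.09 with sg492, of which only the former was called (sg492 adjusted p = 0.20). Between sg495 and sg492 it was -0.74 ± 0.09. With sg495 Hmox1 lay 0.90 below the chromosome 8 median on the log2 scale, and only 7 of the 645 genes fell further. With the shift of chromosome 8 taken out of each library, the Hmox1 call against the control remained, whereas sg495 against sg492 gave -0.38 and no call. Without the cultured sg495 replicate 1, sg495 against sg492 had an adjusted p of 0.057.

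The tumors gave no lower Hmox1 level with either guide as a pair. In bulk tumors it stood at 129 and 129.8 TPM in the control, at 208 and 165 TPM for sg492 and at 142 and 129 TPM for sg495. In sorted cells it stood at 129.9 and 138 TPM, at 215 and 163 TPM and at 118 and 188 TPM. Both sg492 pairs were above their controls, as for 31.1% and 20.4% of genes, with log2 fold changes of 0.51 and 0.48 that did not pass (limma adjusted p = 0.48 and 0.72). With sg495 the log2 fold changes were 0.06 and 0.15, where the chromosome 8 medians were -0.25 and -0.34.

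Whether the effect of sg495 on Hmox1 differed between sample types was asked of an interaction term in 1 model of all 18 libraries. The effect was higher in sorted cells than in cultured cells by 1.38 ± 0.26 on the log2 scale (SE; limma adjusted p = 0.013), and exceeded that in cultured cells by 1.29 ± 0.26 in bulk tumors (adjusted p = 0.030). Hmox1 was the only member called in either interaction, where 1.86% and 1.60% of all genes were called higher and 0.646% and 0.16% lower. Of the 15 hypoxia response genes, 10 and 9 were called higher in these interactions and none lower, with median log2 differences of 1.06 and 1.19. Their list was chosen with earlier results of these data known, and their part in the Hmox1 difference was not tested. Sorted sg495 replicate 1 had the highest mitochondrial share of the sorted libraries (8.02% of TPM), and replicate 2 the highest summed level of acute stress genes. The part of these in the Hmox1 difference was not tested either. Of 18 runs that each left out 1 library, the call held in 14 and in 11. In the runs that lost it the difference stayed between 1.23 and 1.39, with adjusted p from 0.051 to 0.12. The libraries whose absence ended the call were, for sorted against cultured cells, control replicate 1 of either type and both cultured sg495 replicates, and for bulk tumors bulk control replicate 2, both bulk sg495 replicates and all 4 cultured control and sg495 libraries. Without sorted sg495 replicate 1, Mt1 was called as well, at 0.77 (adjusted p = 0.032) where all libraries gave 0.52 (0.19). With sg492 the same differences were 0.96 and 1.00, with unadjusted p of 0.0030 and 0.0024 and adjusted p of 0.32 and 0.67. No member was called in these, where 0.0076% and 0.0% of genes were called higher and 0.0228% and 0.0% lower. At an unadjusted p below 0.05 they held 2 members each, Hmox1 and Gclm, against 8.35% and 6.13% of genes.

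Nqo1 was low with sg495 in all 3 sample types. It stood at 14.7 and 15.0 TPM in control cultured cells, at 13.9 and 12.8 TPM for sg492 and at 8.72 and 9.03 TPM for sg495. In bulk tumors the values were 5.92 and 8.08, 7.51 and 6.52, and 4.52 and 4.21 TPM, and in sorted cells 7.84 and 8.17, 5.67 and 5.68, and 5.20 and 4.92 TPM. The sg495 libraries were below their controls without overlap each time, with log2 fold changes of -0.69 ± 0.08 in cultured cells (SE; limma adjusted p = 0.0056), -0.56 ± 0.18 in bulk tumors (0.20) and -0.57 ± 0.14 in sorted cells (0.14), of which the one in cultured cells was called. Both libraries were below their controls for 80.0%, 65.3% and 71.1% of chromosome 8 genes in cultured cells, bulk tumors and sorted cells. The differences of Nqo1 from the chromosome 8 median with sg495 were -0.35, -0.31 and -0.23. With sg492 its log2 fold changes were -0.15, 0.01 and -0.43 in the same order, and none was called. In sorted cells Nqo1 with sg492 lay 0.45 below the chromosome 8 median, farther than with sg495. With the shift of chromosome 8 taken out, the sg495 fold change in cultured cells was -0.35 on the log2 scale (limma adjusted p = 0.045) and missed the fold limit. Without the cultured sg495 replicate 1 its adjusted p was 0.051.

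In cultured cells the metallothionein genes lay closer to the chromosome 8 median than Hmox1 and Nqo1. Mt1 in cultured cells stood at 1146 and 1270 TPM in the control, at 1201 and 1171 TPM for sg492 and at 825 and 846 TPM for sg495. The sg495 libraries lay apart from the rest, with a log2 fold change of -0.53 ± 0.05 (SE; limma adjusted p = 0.0038), a fold of 0.693 that missed the limit and was 0.20 below the chromosome 8 median. Without the cultured control replicate 1 it was -0.60 and passed. Mt2 stood at 398 and 434, at 399 and 434 and at 357 and 366 TPM, a log2 change of -0.20 ± 0.06 (adjusted p = 0.079) that was 0.13 above that median. In bulk tumors and sorted cells the log2 fold changes of both genes with sg495 lay between -0.20 and 0.12. Mt1 and Mt2 were 0.052 and 0.223 above the chromosome 8 median in bulk tumors and 0.336 and 0.461 above it in sorted cells, where Nqo1 was nearer to it.

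No member on another chromosome was called with a guide. Txnrd1 in cultured cells stood at 247 and 243 TPM in the control, 236 and 243 TPM for sg492 and 272 and 269.96 TPM for sg495, a log2 fold change with sg495 of 0.14 ± 0.03 (SE; limma adjusted p = 0.048) far under the fold limit. In sorted cells it was 169 and 165, 175 and 173, and 133 and 144 TPM, with -0.27 ± 0.07 for sg495, and the difference between these effects was -0.42 (adjusted p = 0.024), also under the limit. Slc30a1 in cultured cells stood at 3.57 and 4.03 TPM in the control, 3.02 and 3.78 TPM for sg492 and 5.47 and 5.29 TPM for sg495, so the sg495 pair lay above the control pair, as for 27.5% of genes, with a log2 fold change of 0.41 ± 0.14 that did not pass (adjusted p = 0.11). Gclc, Gclm and Srxn1 had fold changes between -0.16 and 0.25 on the log2 scale in the 6 comparisons of a guide with the control.

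**Figure D5:**
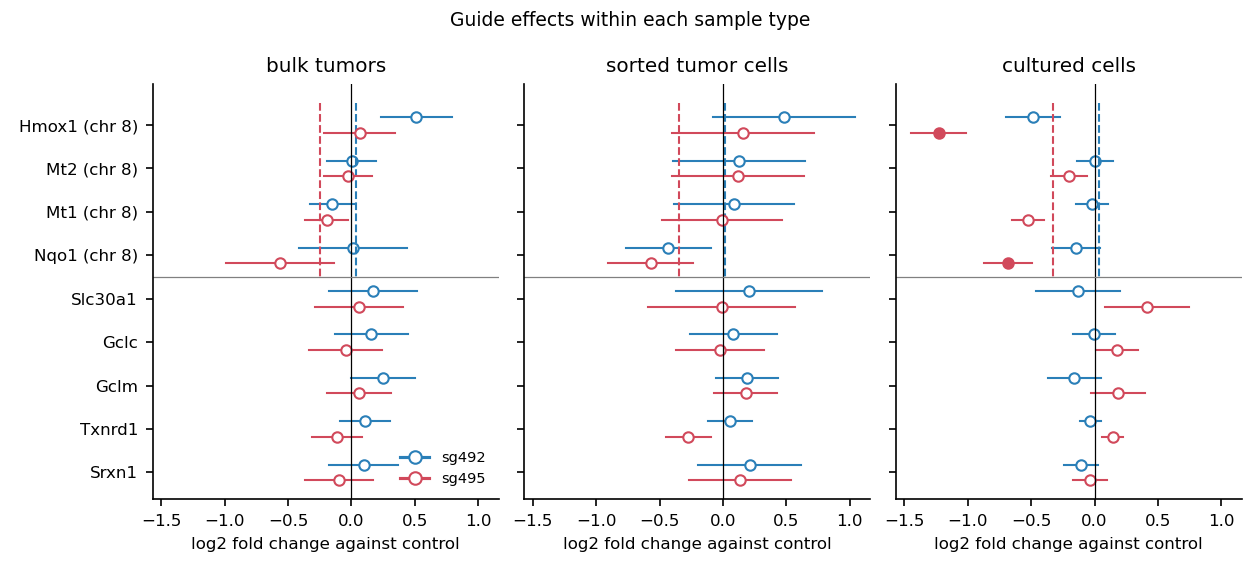
Log2 fold change against control (horizontal axis) with sg492 (blue) and sg495 (red) in each sample type, with 95% confidence intervals from limma. The 4 genes on chromosome 8 stand above the gray line, dashed lines give the median of all chromosome 8 genes for each guide, and filled points (Hmox1 and Nqo1 in cultured cells with sg495) were called.

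Other lists, chosen with earlier results of these data known, gave the setting of these guide effects. In cultured cells with sg495, 12 of 15 hypoxia response genes were called lower and none higher (median -0.88 against 0.00 over all genes), among them Ankrd37 (-2.06), which lies on chromosome 8, Car9 (-1.89), Adm (-1.79) and Bnip3 (-1.50). Their summed level was 1680 and 1606 TPM in the control, 1274 and 1233 TPM for sg492 and 799 and 767 TPM for sg495, the same order as Hmox1, and their part in the Hmox1 level was not tested. Of 30 other genes listed as NRF2 targets and tested, 5 were called lower and none higher (median -0.17). They included Slc7a11 at -1.40, Trib3 at -1.33, Mgst1 at -1.04 and Gsta4 at -1.02, and the part of NRF2 in them was not tested. Slc7a11 stood at 5.87 and 4.08 TPM in the control and at 1.44 and 1.04 TPM for sg495. In the metal list 1 of 20 genes tested was called, the copper transporter gene Atp7b (-0.96), which lies on chromosome 8, at 1.89 and 1.43 TPM against 0.36 and 0.36 TPM.

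No regulator of NRF2, no gene of heme and iron handling and no other antioxidant enzyme was called with either guide against the control in any sample type. Keap1, Nfe2l2, Nfe2l1, Bach1 and Mtf1 had log2 fold changes between -0.21 and 0.43. Of the acute stress genes, Ier3, Atf3 and Jund, the last of which lies on chromosome 8, were called lower in cultured cells with sg495 and Egr1 higher in sorted cells with sg495. No glucocorticoid response gene was called with a guide. No macrophage marker was called in bulk tumors, where their summed level was 669.8 and 484 TPM in the control, 724 and 897 TPM for sg492 and 975.5 and 1029 TPM for sg495. Red cell markers there summed to 1769 and 565 TPM, to 550.2 and 1305 TPM and to 733 and 299.8 TPM, and the part of either in the Hmox1 level of bulk tumors was not tested.

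In sorted cells the same 2 libraries stood highest for 6 of the 9 genes. The share of all genes with this order is not given here, so the order is not read as particular to the members. The sg492 replicate 1 and the sg495 replicate 2 had the highest Mt1 (1165 and 1125 TPM), Mt2 (966 and 949 TPM), Slc30a1 (26.3 and 23.4 TPM), Hmox1 (215 and 188 TPM), Gclm (81.1 and 80.1 TPM) and Srxn1 (48.2 and 48.8 TPM) of the 6 sorted libraries. They also had the highest Atf3 (305 and 342 TPM), a stress-induced transcription factor gene, and the highest summed level of the acute stress list (2630 and 3196 TPM, against 1942 to 2127 TPM in the other 4). Nqo1, Gclc and Txnrd1 did not share this order. Over the 6 sorted libraries the Pearson correlation of log2(TPM + 1) with Mt1 was 0.96 for Mt2, 0.93 for Slc30a1, 0.86 for Hmox1 and -0.10 for Nqo1, in libraries that share their guides in pairs. Over the 6 cultured libraries it was 0.91 for Mt2, -0.88 for Slc30a1, 0.90 for Hmox1 and 0.97 for Nqo1, where the sg495 pair stood apart from the rest. The part of handling stress in the spread of the sorted libraries was not tested. Sorted sg495 replicate 1 was separate in another way, with 8.02% of its TPM in mitochondrial genes against 3.45% to 4.73% in the other 5.

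The genes most like Mt1, Hmox1 and Nqo1 were sought among 11711 genes by the lowest of the 3 Pearson correlations over the 6 libraries of each sample type, which share guides in pairs. For Mt1 they were Mettl9 (lowest correlation 0.77), Egln1 (0.74), which lies on chromosome 8, and Aldh1b1 (0.74). For Hmox1 they were Gm13436 (0.83), Trpc1 (0.78) and Dubr (0.76). For Nqo1 they were Fbxo8 (0.91), which lies on chromosome 8, Copb2 (0.90) and Rcn3 (0.89). These values describe the libraries and carry no test.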

How the data were processed

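By the submitters' processing notes and the study's methods, the authors trimmed single-end reads with Cutadapt 2.3, aligned them with STAR 2.7.0d to mm10 with Ensembl transcripts, and estimated transcript abundance (TPM) with RSEM 1.3.1. The deposited TPM table covers 47643 genes and 23 libraries, each summing to 999999 to 1000001. Read counts were not used here, so no counting interval is given, and RSEM divides reads that fit several genes. Libraries were prepared with a strand-specific kit.

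The 9 genes and the 14 gene lists (243 of 244 genes found) were chosen with earlier results of these data known. Values were analysed as log2(TPM + 1), which understates folds of scarce genes, keeping genes whose mean reached 1 TPM. Guides were compared within each sample type, and sample types and interactions in 1 fit of 18 libraries, with limma 3.58.1 (R 4.3.3, trend) and Benjamini-Hochberg adjustment over all genes tested. The limits for a call were 0.05 for the adjusted p and 1.5 for the fold. The script was tested on simulated data with known changes. Genes named were the members, Nr2f6, up to 4 genes called with the widest change per list and comparison, 5 regulators, single markers, and the 3 genes most like Mt1, Hmox1 and Nqo1. The replicate numbers were not treated as pairs. Leaving out libraries, other scalings, filters and pseudocounts were tried. The 5 IgG and anti-PD1 libraries were kept for the closing observations. Exact permutation tests used scipy 1.17.1. Gene positions came from GENCODE M21 (GRCm38), and promoters from RefSeq.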

Additional observations from a re-analysis of the deposited data

Results flagged for a closer look

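The effect of sg495 on Hmox1 differed between sample types by a test of the difference itself. It was 1.38 higher on the log2 scale in sorted than in cultured cells and 1.29 higher in bulk tumors than in cultured cells, with limma adjusted p of 0.013 and 0.030. The 2 cultured sg495 libraries stood at 47.7 and 47.9 TPM, below both cultured controls, while the sg495 libraries from tumors stood between 118 and 188 TPM, around their controls. The groups held 2 libraries each, and 10 and 9 of 15 hypoxia response genes were called higher in the same interactions. The hypoxia list was chosen with earlier results of these data known. With 1 library left out at a time, the differences ran from 1.052 to 1.715 and from 1.229 to 1.36. Some of these runs ended each call.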

How the results depend on the processing

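Estimates of a spread from 2 libraries a group limit the comparisons within a sample type. Of 565 values of 58 member results under other settings, 534 kept direction and call, 20 gained a call, 8 lost it and 3 reversed, all with chromosome 8 centered: Mt1 in bulk tumors with sg495 against control (0.0496) and Mt2 in cultured cells with sg495 against control (0.13) and against sg492 (0.16). With chromosome 8 centered, 1 member was called for sg495 against control and 0 for sg495 against sg492 in cultured cells. With quantile normalization 2 were called for sg495 against sg492, where Slc30a1 was added at 0.63. Without the fold limit 4 and 4 members were called in these comparisons, 5 for bulk tumors against sorted cells, 9 for bulk tumors against cultured cells and 2 for the sg495 effect in sorted minus cultured cells. The shares of all genes called under these settings are not given beside these counts, so the counts do not set the members apart.

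Leaving out 1 library gave 1 to 3 members called for sg495 against control and 0 to 2 for sg495 against sg492 in cultured cells, 4 to 5 for bulk tumors against cultured cells, and 0 to 2 and 0 to 1 for the sg495 effect in sorted and in bulk minus cultured cells. The member counts of the other comparisons did not change. The 2 in cultured cells for sg495 against sg492 included Nqo1, without sg492 replicate 2. Where a group was left with 1 library, it was assumed to vary like the others. The shares of all genes called in these runs are not given here, so the member counts do not set the members apart.

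The calls over all genes changed more than those of the members. For sg495 in bulk tumors they went from 3 higher and 1 lower to 361 and 34 with all 18 libraries in 1 fit, and for sg495 in sorted cells from 78 and 38 to 250 and 149, with no member called in any of these. Without a filter on TPM, sorted cells gave 2 and 1, and cultured cells with sg495 went from 88 and 244 to 52 and 167. Requiring a mean of 5 TPM gave 581 higher and 402 lower for bulk tumors against sorted cells and 1049 and 429 against cultured cells. Without the fold limit cultured cells with sg495 gave 542 and 900. Median-of-ratios scaling changed sorted cells with sg495 to 80 and 17, and chromosome 8 centering to 72 and 9. Quantile normalization changed sg495 against sg492 in cultured cells from 69 and 244 to 97 and 189, and the sg495 effect in bulk minus cultured cells from 210 and 21 to 139 and 43. It moved the median log2 difference over all genes of bulk tumors against cultured cells from 0.02 to -0.11.

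Same-numbered replicates are not stated to be paired, and their deviations correlated between -0.126 and 0.0507. With a replicate block, 0 members were called for the sg495 effect in bulk minus cultured cells (Hmox1 1.29, limma adjusted p = 0.068), the calls over all genes there went to 73 and 14, and no other member count moved. The calls for sg492 in sorted cells went from 4 and 1 to 0, and those for sg492 in cultured cells from 3 and 3 to 0. Of 95 other member tests, 23 changed sign under some setting, with an adjusted p of at least 0.35 after the change. With a mean of 5 TPM required, Slc30a1 could not be tested within cultured cells. The cause of these changes was not tested.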

Other observations

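The series held 5 further libraries, 2 labeled IgG control and 3 labeled anti-PD1, whose labels do not give a sample type. Hmox1 stood at 1678 and 1219 TPM in the IgG libraries and at 644, 1260 and 582 TPM in the anti-PD1 libraries, against at most 215 TPM in the 18 others. Mitochondrial genes took 10.2% and 11.4% of the TPM in the IgG libraries and 21.9%, 8.63% and 16.6% in the anti-PD1 libraries, against at most 8.02% in the 18 others, and their part in these levels was not tested. Slc30a1 stood at 39.9 and 50.6 TPM and at 9.11, 21.7 and 22.1 TPM. Mt1 ran from 371 to 560 TPM over the 5 libraries. Limma called no gene between anti-PD1 and IgG, with 964 of 13418 genes (7.18%) at an unadjusted p below 0.05. Slc30a1 (log2 fold change -1.40) and Hmox1 (-0.88) were among these 964, each with a limma adjusted p of 0.61. The ratio of Mt2 to Mt1 was 0.517 and 0.456 in the IgG libraries and 0.454, 0.409 and 0.492 in the anti-PD1 libraries. Of these 5 ratios, 0.409 lay within the range of cultured cells (0.332 to 0.432) and the others between that range and that of bulk tumors (from 0.689). Ptprc stood between 86.7 and 273 TPM and the macrophage markers summed to 7540 to 11340 TPM in these 5 libraries, while Tyr, the melanocyte gene of tyrosinase, stood between 23.4 and 161 TPM against 294 to 467 TPM in the 18 others. The part of host cells in their Hmox1 level was not tested.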
